A study of Mus musculus with 2 samples.

Results

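The TNF superfamily is the family of ligands and receptors through which T cells deliver and receive death, survival and costimulatory signals. Its members were taken by symbol from the probe annotation. They were all genes whose single annotated symbol starts with Tnfsf or Tnfrsf and a digit, together with Tnf, Lta, Ltb, Ltbr, Fas, Fasl, Cd27, Cd70, Cd40, Cd40lg, Eda and Ngfr. This gave 43 genes, 18 ligands and 25 receptors, of 17501 named genes, measured by 70 of 36547 probes. The series held 2 samples, each a 2-colour array. One compared Th17-polarized with Th0 lymphocytes and is called the Th17 array, and the other compared Th1-polarized with Th0 lymphocytes and is called the Th1 array. Th0 is the usual name for cells activated without a lineage-directing set of cytokines. Polarized RNA carried Cy5 and Th0 RNA carried Cy3 on both arrays, per the labels. All populations were cultured lymphocytes of a TRP-1 mouse, a T cell receptor transgenic strain that recognises a melanoma antigen. The culture conditions, the sorting of the cells and the number of mice behind each RNA are not given in the sources used here.

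Most ligands of the family are trimers at the cell surface, some of which are shed, and each binds one or a few receptors. Receptors with a death domain can start apoptosis, as Fas does, while receptors without one recruit TRAF adaptors and activate NF-kappaB. Decoy receptors bind a ligand without passing on a signal. In activated CD4 T cells the family supplies costimulation through receptors such as OX40, 4-1BB, GITR and CD27, limits expansion through Fas and its ligand, and shapes lymphoid tissue through the lymphotoxins.

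Values are log2 ratios of the 2 channels as deposited. There was 1 array for each comparison and no dye swap, so values stand without replicates and no test was run. A gene was counted when its absolute log2 ratio was at least 1, a 2-fold difference. The direction of the ratio is not settled. The titles and dyes name the polarized population over Th0 cells, in which case a negative value means lower expression in polarized cells. The cytokine genes that define the lineages lay on that negative side. On the Th17 array Il17a was at −5.37, Il17f at −2.38, Il22 at −5.79 and Ccl20 at −6.48, and on the Th1 array Ifng was at −2.02. The cytotoxic granule genes lay opposite on the Th17 array, Gzmb at 2.83 and Prf1 at 3.24. Tbx21, a transcription factor gene of Th1 cells, was at −1.25 on the Th1 array and at 0.87 on the Th17 array. Sides are therefore given as deposited, and with the sign turned every negative value reads as higher expression in polarized cells. Ratios carry no expression level, so the presence of the labelled cell type could not be read from T cell markers. In bulk RNA, fewer cells of a type and less RNA per cell cannot be told apart.

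On the Th17 array 15 of the 43 members (34.9%) were at least 2-fold apart, beside 8.42% of all named genes. The negative side, where Il17a lay, held 12 of them, beside 5.52% of all genes, and the positive side held 3, beside 2.9%. Ligands had a median of −0.54 and receptors one of −0.22, against −0.033 over all named genes. The median of ligands stayed below 0 under each way of centring tried, while that of receptors was 0.21 after centring on the most repeated value of the array. On the Th1 array 6 members (14%) were at least 2-fold apart, beside 10.2% of all genes. Each side held 3, where 6.92% of all genes were negative and 3.27% positive. The medians were −0.48 for ligands and −0.25 for receptors, against −0.076 over all genes, and both were positive after the same centring, at 0.37 and 0.60.

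**Figure D1:**
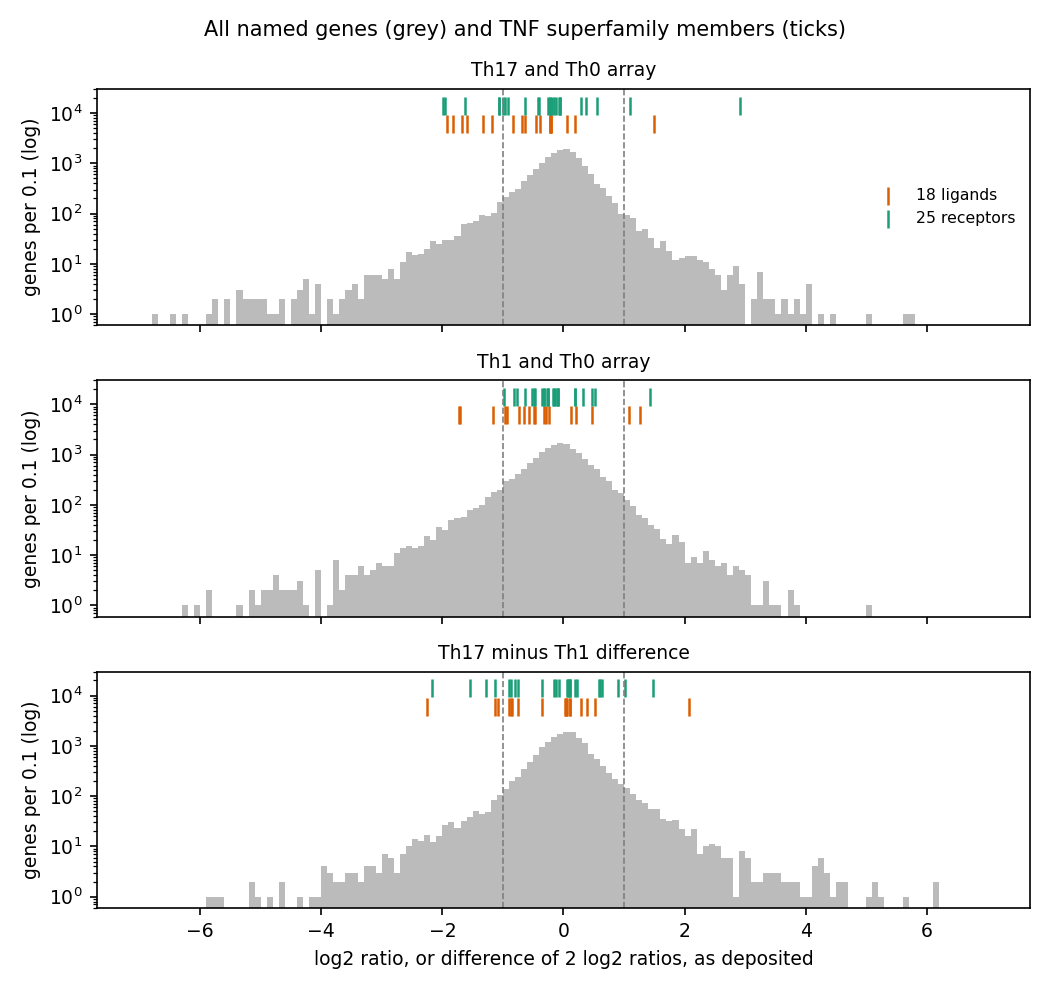
Log2 ratios of all 17501 named genes on the Th17 array, on the Th1 array and in the difference of both (grey, number of genes per bin on a log axis), with a tick for each of 18 ligands and 25 receptors. Dashed lines mark 2-fold. On the Th17 array 12 ticks lie beyond the negative line and 3 beyond the positive one.

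Among the ligands, the lymphotoxins lay on the side of Il17a on the Th17 array while Tnf, their neighbour, lay nearer to 0. Lta encodes lymphotoxin alpha, which binds the TNF receptors as a homotrimer, and Ltb encodes the membrane partner with which it forms the ligand of the lymphotoxin beta receptor. Lta, with 1 probe, was at −1.82 (3.54-fold) on the Th17 array and at −0.97 (1.96-fold) on the Th1 array. Ltb, also with 1 probe, was at −1.67 (3.18-fold) on the Th17 array and at −1.71 (3.26-fold) on the Th1 array. Tnf, the inflammatory cytokine, was at −0.45 on the Th17 array and at −0.49 on the Th1 array. So Ltb was past 2-fold on both arrays, Lta on the Th17 array only, and Tnf on neither. Lta was just short of 2-fold on the Th1 array and was at −1.25 there after centring on control genes. It was at −0.86 there with the median of all probes centred and at −0.12 with the most repeated value centred. Ltb was short of 2-fold on the Th1 array under the last centring, at −0.86.

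The 3 genes sit beside one another on chromosome 17 with no other coding gene between them. Their promoters are printed because the genes are adjacent and yet differ in size of ratio. Each run is the 250 bases before the annotated start site, from RefSeq on GRCm38.p6, 5′ to 3′ on the gene's strand. Capitals mark matches to 4 motifs searched on both strands, which were GGNNNTTCC (a form of the NF-kappaB site), TGANTCA (AP-1), TTCNNNGAA (STAT) and AGGTCA (the half-site read by ROR receptors). The windows are chr17:35205352-35205601 on the minus strand for Lta, chr17:35194257-35194506 on the plus strand for Ltb and chr17:35202008-35202257 on the minus strand for Tnf.
Lta: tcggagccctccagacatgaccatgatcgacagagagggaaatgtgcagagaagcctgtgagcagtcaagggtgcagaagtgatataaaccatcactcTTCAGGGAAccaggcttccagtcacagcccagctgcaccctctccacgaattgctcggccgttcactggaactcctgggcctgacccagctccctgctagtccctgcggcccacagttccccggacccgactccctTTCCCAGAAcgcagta
Ltb: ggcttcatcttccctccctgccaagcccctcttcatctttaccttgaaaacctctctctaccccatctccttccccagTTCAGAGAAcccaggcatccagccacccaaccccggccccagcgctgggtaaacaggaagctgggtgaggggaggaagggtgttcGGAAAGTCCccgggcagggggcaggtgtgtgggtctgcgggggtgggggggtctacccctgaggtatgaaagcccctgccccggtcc
Tnf: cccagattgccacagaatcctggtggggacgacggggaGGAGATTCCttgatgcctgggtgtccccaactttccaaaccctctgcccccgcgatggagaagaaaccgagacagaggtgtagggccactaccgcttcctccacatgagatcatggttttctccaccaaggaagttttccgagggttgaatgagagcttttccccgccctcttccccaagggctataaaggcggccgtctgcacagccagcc
Counted from the start site, the Lta window held STAT matches that begin at −152 and −16. The Ltb window held a STAT match that begins at −172 and the NF-kappaB form, on the opposite strand, at −87. The Tnf window held the NF-kappaB form at −212.

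The ligands of the costimulatory receptors differed widely among themselves. Tnfsf8, which encodes CD30 ligand, was the lowest ligand of the Th17 array, at −1.92 (3.79-fold), and was at −1.16 (2.24-fold) on the Th1 array. Tnfsf4, which encodes OX40 ligand, was at −1.33 (2.52-fold) on the Th17 array and at −1.73 (3.32-fold) on the Th1 array. Cd70, whose product binds CD27, was at −1.6 (3.03-fold) on the Th17 array and at −0.47 on the Th1 array. Each of these ligands rests on 1 probe. As deposited, Tnfsf8 and Tnfsf4 were thus past 2-fold on both arrays, and Cd70 on the Th17 array alone. With the most repeated value centred, Tnfsf8 was at −0.31 and Tnfsf4 at −0.88 on the Th1 array, and Tnfsf4 at −0.91 on the Th17 array. Cd40lg, which encodes the ligand through which helper T cells activate B cells and dendritic cells, did not reach 2-fold, at −0.83 on the Th17 array and −0.93 on the Th1 array. The ligands of 4-1BB and GITR lay near 0. Tnfsf9 was at −0.23 on the Th17 array and −0.29 on the Th1 array. Tnfsf18 was at 0.063 on the Th17 array and −0.23 on the Th1 array, where 1 of its 2 probes matched a weaker channel of 5 units.

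The genes of RANK ligand and of Fas ligand lay on opposite sides of 0 on the Th17 and the Th1 array, although with the most repeated values centred Fasl was above 0 on both. Tnfsf11 encodes RANK ligand, which drives osteoclast formation and is made by activated T cells. It was at −1.17 (2.25-fold) on the Th17 array and at 1.07 (2.1-fold) on the Th1 array. Fasl, which encodes the ligand that kills cells through Fas, was the highest ligand of the Th17 array, at 1.49 (2.82-fold), the side of Gzmb and Prf1. On the Th1 array it was at −0.58 (1.49-fold), on the side of Ifng and opposite to Gzmb at 0.47 and Prf1 at 3.43. The 7 measured markers of NK and CD8 T cells had medians of −0.16 on the Th17 array and −0.13 on the Th1 array. As deposited, these markers ran from −2.17 (Klrc1) to 3.72 (Klrb1c) on the Th17 array. On the Th1 array they ran from −2.49 to 3.22, the same 2 genes. Their part in the value of Fasl was not tested. Tnfsf10, which encodes the death ligand TRAIL, did not go with Fasl. It was at −0.2 on the Th17 array and at −0.73 on the Th1 array over 2 probes.

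The remaining ligands are best known for their action on B cells, stroma and developing tissue, or on T cells. Tnfsf12, which encodes TWEAK, was at 0.19 on the Th17 array and at 1.27 (2.41-fold) on the Th1 array, the ligand farthest on the positive side there. The neighbouring gene Tnfsf13, which encodes APRIL, was at −0.4 on the Th17 array and 0.47 on the Th1 array. Its Th1 value matched a weaker channel of only 2 signal units. Tnfsf13b, which encodes the B cell survival factor BAFF, was at −0.69 on the Th17 array and 0.21 on the Th1 array, with probe SDs of 0.09 and 0.24 over 3 probes. Of these, APRIL and BAFF are made chiefly by myeloid cells. Markers of myeloid cells had a median of 0.79 on the Th17 array and of 1.8 on the Th1 array over 13 measured genes. As deposited, they ran from −2.04 (Cd14) to 2.14 (S100a9) on the Th17 array, where 5 of 13 lay below 0, and from 0.028 (Itgam) to 2.98 (Fcer1g) on the Th1 array. Their part in the values of these ligands was not tested. Tnfsf14, Tnfsf15 and Eda, which encode LIGHT, TL1A and ectodysplasin, were at −0.23, −0.63 and −0.21 on the Th17 array and at 0.13, −0.66 and −0.32 on the Th1 array.

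**Figure D2:**
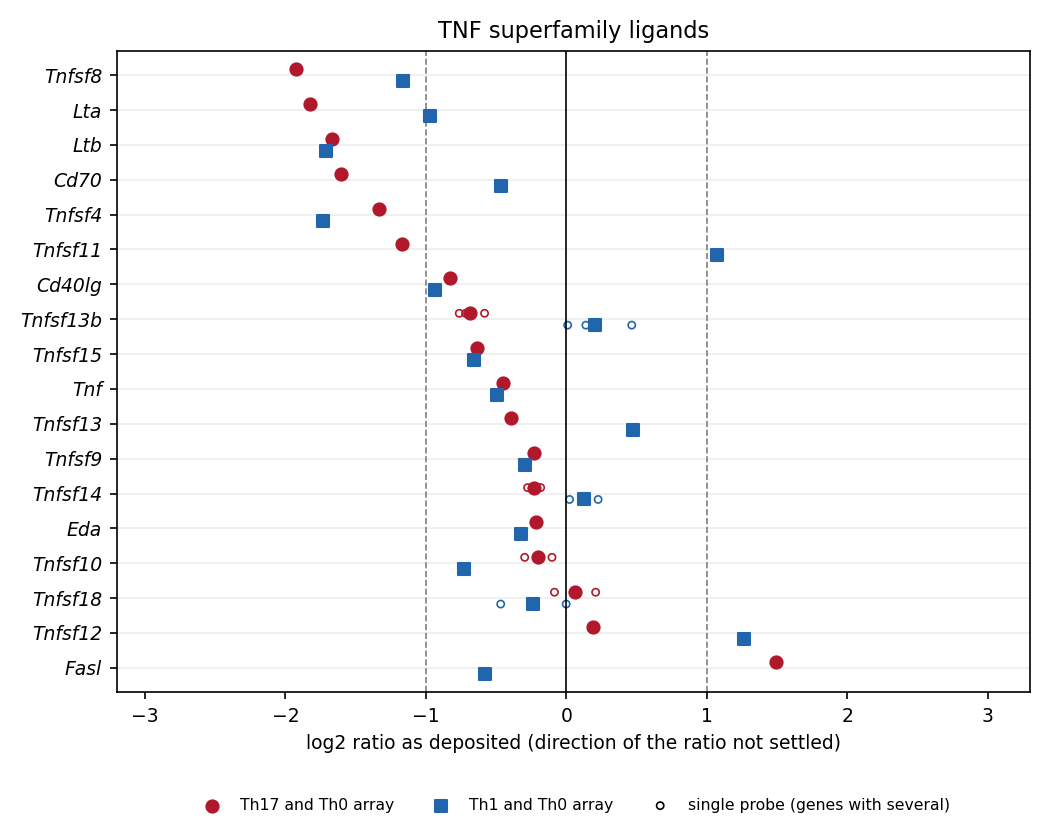
Log2 ratio of each of 18 ligands, in order of the Th17 value, on the Th17 array (red circles) and the Th1 array (blue squares). Small open circles are single probes of ligands with several probes, and dashed lines mark 2-fold. Fasl at 1.49 and Tnfsf11 at −1.17 are the ligands whose arrays lie on opposite sides of 0 by the widest margins.

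As deposited, 6 of 6 receptors with a death domain lay below 0 on both arrays, a count that became 3 on the Th17 array and 0 on the Th1 array with the most repeated value centred, and 4 on the Th1 array with the median centred. Of all 17501 genes, 53.7% lay below 0 on the Th17 array and 57.4% on the Th1 array. Ngfr and Tnfrsf10b are counted by means near 0 and had probes on both sides of 0 on both arrays, as Tnfrsf1a had on the Th1 array. Of the 6, 3 were at least 2-fold negative on the Th17 array, beside 5.52% of all genes. Fas, the receptor that triggers apoptosis in activated T cells, had probes at −1.85 and −1.42 on the Th17 array, a mean of −1.63 (3.1-fold), and at −0.87 and −0.67 on the Th1 array, a mean of −0.77 (1.71-fold). Both probes of Fas were on the negative side on each array as deposited. With the most repeated value centred, the mean of Fas on the Th1 array was 0.08. Tnfrsf25, which encodes death receptor 3, the receptor of TL1A on T cells, had probes at −2.86 and −1.04 on the Th17 array, a mean of −1.95 (3.86-fold), and at −1.2 and −0.44 on the Th1 array, a mean of −0.82. Its size is therefore uncertain by the gap between its probes. Tnfrsf1a, which encodes the TNF receptor with a death domain, stood at the 2-fold line at −1.01 on the Th17 array and at −0.1 on the Th1 array. It fell short of 2-fold under each of the 3 other centrings, at −0.96, −0.98 and −0.58. The other 3, Tnfrsf10b (the TRAIL receptor of mice), Tnfrsf21 (death receptor 6) and Ngfr (the p75 neurotrophin receptor), lay between −0.22 and −0.05 on the Th17 array and between −0.25 and −0.09 on the Th1 array.

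Fas and Fasl, a receptor and its own ligand, were both past 2-fold on the Th17 array and lay on opposite sides of it. Their promoters are shown for this reason, as the 250 bases before the start site on GRCm38.p6, at chr19:34290409-34290658 on the plus strand for Fas and chr1:161788496-161788745 on the minus strand for Fasl.
Fas: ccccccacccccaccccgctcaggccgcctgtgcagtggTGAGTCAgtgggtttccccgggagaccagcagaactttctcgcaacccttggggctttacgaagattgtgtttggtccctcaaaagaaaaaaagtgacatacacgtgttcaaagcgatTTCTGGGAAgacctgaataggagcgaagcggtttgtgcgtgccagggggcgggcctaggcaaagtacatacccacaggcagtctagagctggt
Fasl: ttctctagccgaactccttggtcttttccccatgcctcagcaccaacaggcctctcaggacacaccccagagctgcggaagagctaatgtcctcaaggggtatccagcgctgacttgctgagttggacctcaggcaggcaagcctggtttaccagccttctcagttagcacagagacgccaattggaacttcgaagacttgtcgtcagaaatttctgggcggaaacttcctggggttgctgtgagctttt
The Fas window held an AP-1 match that begins at −211 and a STAT match that begins at −93. The Fasl window held no match to the 4 motifs, which says only that these letters are not in it.

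Costimulatory receptors without a death domain gave a mixed picture. Tnfrsf4, which encodes OX40, was at −1.06 (2.09-fold) on the Th17 array and at −0.26 on the Th1 array. Tnfrsf18, which encodes GITR, was at −0.42 on the Th17 array and −0.48 on the Th1 array over 2 probes, though it is the next gene to Tnfrsf4. Cd27, which supports survival of T cells, was at 0.55 on the Th17 array and −0.085 on the Th1 array. Tnfrsf14, the herpesvirus entry mediator, was at −0.63 on the Th17 array and −0.47 on the Th1 array. Of these, OX40 alone was past 2-fold, and only on the Th17 array. Tnfrsf1b, the TNF receptor without a death domain, averaged −0.25 on the Th17 array and −0.18 on the Th1 array, but its 3 probes ran from −0.89 to 0.39 on the Th17 array. Tnfrsf8, which encodes CD30, averaged −0.15 on the Th17 array and 0.2 on the Th1 array, and its 3 probes ran from −0.29 to 0.87 on the Th1 array.

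For Tnfrsf9 the value depends on the probe. This gene encodes 4-1BB, a receptor induced by activation that sustains T cell responses. One probe was at 2.7 on the Th17 array and 1.92 on the Th1 array, and the other at −0.5 on the Th17 array and −0.89 on the Th1 array. The mean of 1.1 on the Th17 array, which passes 2-fold, thus joins probes on opposite sides (SD 2.26), and so does the mean of 0.52 on the Th1 array (SD 1.99). Both probes carry the same annotated transcript. RefSeq holds 2 start sites for the gene, and the windows before both are printed since the probes differ. They are at chr4:150919905-150920154 and chr4:150927749-150927998, both on the plus strand of GRCm38.p6, and which of the transcripts each probe reads was not tested.
Tnfrsf9, upstream start: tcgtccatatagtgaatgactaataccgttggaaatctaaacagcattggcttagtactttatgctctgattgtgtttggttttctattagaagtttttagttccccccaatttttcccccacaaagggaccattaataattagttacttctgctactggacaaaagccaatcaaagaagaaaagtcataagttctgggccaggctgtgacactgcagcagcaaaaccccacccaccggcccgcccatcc
Tnfrsf9, downstream start: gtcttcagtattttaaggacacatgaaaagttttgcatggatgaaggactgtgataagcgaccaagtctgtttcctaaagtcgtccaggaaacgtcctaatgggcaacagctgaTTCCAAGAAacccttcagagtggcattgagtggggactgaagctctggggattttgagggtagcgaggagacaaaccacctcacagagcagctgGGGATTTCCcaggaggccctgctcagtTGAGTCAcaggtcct
The upstream window held no match to the 4 motifs. The downstream window held a STAT match that begins at −136, the NF-kappaB form at −42 and an AP-1 match at −15.

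Cd40, the receptor of antigen-presenting cells for CD40 ligand, also split by probe. On the Th17 array 3 of its 4 probes lay between −1.29 and −1.22 and the fourth at 0.14. Their mean of −0.91 is short of 2-fold, and the 3 concordant probes are each past it. On the Th1 array the 4 probes lay between −0.38 and 0.057. Ltbr, the lymphotoxin beta receptor of stromal and myeloid cells, was at −0.96 (1.95-fold) on the Th17 array and at 0.33 on the Th1 array. Tnfrsf12a, which encodes the TWEAK receptor Fn14, was at −1.07 (2.1-fold) on the Th17 array and at 0.48 on the Th1 array. Both thus lay on opposite sides of 0 on the 2 arrays.

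The receptors of BAFF and APRIL did not move as a group. Tnfrsf13b, which encodes TACI, a receptor best known from B cells, had the lowest mean of all 43 members on the Th17 array. Its probes were at −2.07 and −1.89 there, a mean of −1.98 (3.95-fold), and at 0.5 and −0.12 on the Th1 array, a mean of 0.19. The probes were on the same side on the Th17 array and on opposite sides on the Th1 array. Tnfrsf13c, the BAFF receptor, was at 0.37 on the Th17 array and −0.64 on the Th1 array. Tnfrsf17, which encodes the plasma cell receptor BCMA, was at −0.19 on the Th17 array and −0.27 on the Th1 array. The 7 measured B cell markers had a median of 0.14 on the Th17 array. Of these, 2 lay on the side of Tnfrsf13b, Cr2 at −1.25 and Cd22 at −0.47, and the other 5 ran from 0.05 (Blnk) to 0.34 (Cd79a). Their part in the value of Tnfrsf13b was not tested.

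Tnfrsf11b was the member farthest from 0 on the Th17 array. It encodes osteoprotegerin, the soluble decoy of RANK ligand. Its single probe was at 2.92 (7.55-fold) on the Th17 array, rank 33 from the highest of 17501 genes, and at 1.44 (2.71-fold) on the Th1 array, rank 227. It was the one receptor past 2-fold on the Th1 array. Tnfrsf11a, which encodes RANK itself, was at 0.3 on the Th17 array and −0.31 on the Th1 array. The other decoys, the mouse TRAIL receptors Tnfrsf22 and Tnfrsf23, were at −0.4 and −0.074 on the Th17 array and at −0.51 and −0.98 on the Th1 array. The 4 probes of Tnfrsf22 ran from −0.98 to 0.012 on the Th17 array and from −1.1 to −0.19 on the Th1 array. Tnfrsf23 rests on 1 probe, near 0 on the Th17 array. Tnfrsf19 and Tnfrsf26 were at −0.22 and −0.12 on the Th17 array and at −0.33 and −0.35 on the Th1 array.

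**Figure D3:**
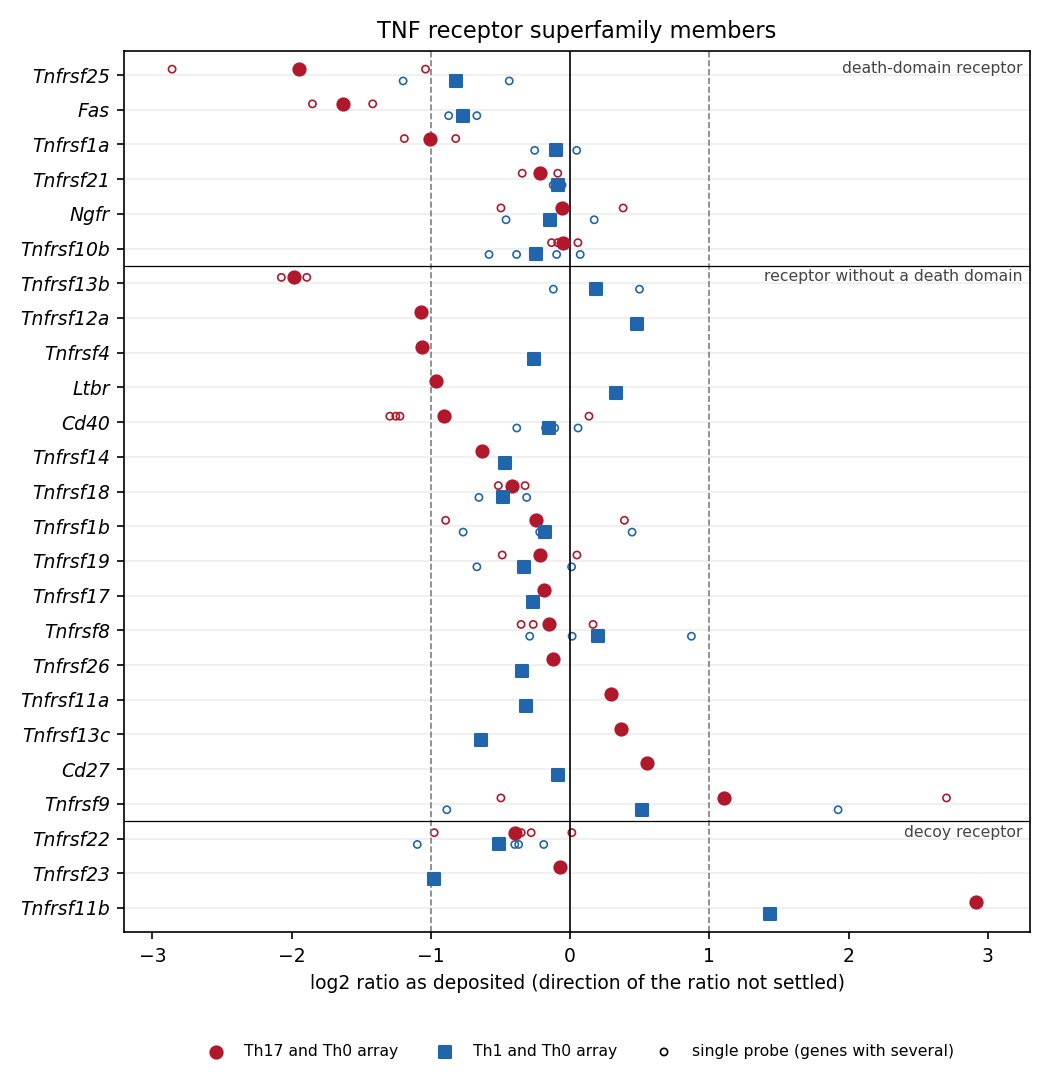
Log2 ratio of each of 25 receptors, in 3 classes, on the Th17 array (red circles) and the Th1 array (blue squares). Small open circles are single probes of receptors with several probes, and dashed lines mark 2-fold. Tnfrsf11b reaches 2.92 and Tnfrsf13b −1.98 on the Th17 array, and the probes of Tnfrsf9 lie apart on both arrays.

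The Th17 and Th1 populations were compared by subtracting the Th1 array's log2 ratio from that of the Th17 array. This assumes that the Th0 RNA was common to both arrays, on which the labels are silent, and that both columns run the same way. At least 2-fold apart were 10 of the 43 members (23.3%), beside 8.14% of all genes, 7 on the negative side beside 3.61% and 3 on the positive side beside 4.53%. The negative ones were Tnfsf11 at −2.25 (4.74-fold), Tnfrsf13b at −2.17 (4.5-fold), Tnfrsf12a at −1.55 (2.93-fold), Ltbr at −1.29 (2.44-fold), Cd70 at −1.13 (2.2-fold), Tnfrsf25 at −1.13 (2.19-fold) and Tnfsf12 at −1.08 (2.11-fold). The positive ones were Fasl at 2.07 (4.2-fold), Tnfrsf11b at 1.48 (2.79-fold) and Tnfrsf13c at 1.01 (2.01-fold). Read as titled, Th17 cells expressed the negative ones less than Th1 cells did, and the turned reading is the reverse. Ltb, Tnf and Tnfsf4, at 0.037, 0.041 and 0.4, and Fas and Lta, at −0.86 and −0.85, were within 2-fold. Myeloid markers had a median of −0.87 in this difference, with 6 of 13 past 2-fold negative and 0 positive, from −2.93 (Mpeg1) to 0.22 (C1qc), and their part in the negative members was not tested. The difference of Tnfrsf13c fell short of 2-fold with medians centred, at 0.94, and with the most repeated values centred, at 0.59. Centring on control genes left Ltbr at −0.98, Cd70 at −0.83, Tnfrsf25 at −0.82 and Tnfsf12 at −0.77.

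Ligands were then read beside their receptors on the same array, over 24 textbook pairs that share 17 ligands and 19 receptors and are therefore not independent. On the Th17 array 16 pairs had both partners below 0, 0 had both above and 8 were opposite. Taken singly, 83.3% of ligands and 80% of receptors lay below 0 on that array, beside 53.7% of all genes. The count of 16 was not separated from these shares and is no sign that partners go together. Of all named genes, 5.52% were at least 2-fold negative there and 2.9% positive, and of the 43 members 27.9% and 6.98%. Over all genes these shares were 6.92% and 3.27% on the Th1 array and 3.61% and 4.53% in the difference. No share of pairs over all genes was computed, so the pair counts are description only. On the Th17 array both partners were at least 2-fold on the negative side in 2 pairs, Tnfsf4 with Tnfrsf4 (−1.33 and −1.06) and Lta with Tnfrsf1a (−1.82 and −1.01). Partners lay past 2-fold on opposite sides in 2 pairs, Fasl with Fas (1.49 and −1.63) and Tnfsf11 with Tnfrsf11b (−1.17 and 2.92). The count of pairs with both partners negative was 1 with medians or control genes centred, where Tnfrsf1a was at −0.96 and −0.98, and 0 with the most repeated value centred. The count of opposite pairs was 2, 2 and 1 under these centrings, and Tnfsf11 was at −0.75 under the last. Tnfsf11 and its decoy were also past 2-fold together on the Th1 array, there both on the positive side (1.07 and 1.44), the 1 such pair there. That count was 0 with control genes centred and 4 with the most repeated value centred. On the Th1 array 1.74% and 29.8% of all genes were at least 2-fold positive under these centrings. In the difference, Tnfsf12 and Tnfrsf12a were both at least 2-fold negative (−1.08 and −1.55). Such pairs numbered 0 with control genes centred and 4 with the most repeated value centred, where 2.2% and 9.49% of all genes were at least 2-fold negative. Several ligands stood past 2-fold beside a receptor that did not. On the Th17 array these included Cd70 at −1.6 beside Cd27 at 0.55 and Tnfsf8 at −1.92 beside Tnfrsf8 at −0.15. The reverse held for Tnfrsf25 at −1.95 beside its ligand gene Tnfsf15 at −0.63.

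**Figure D4:**
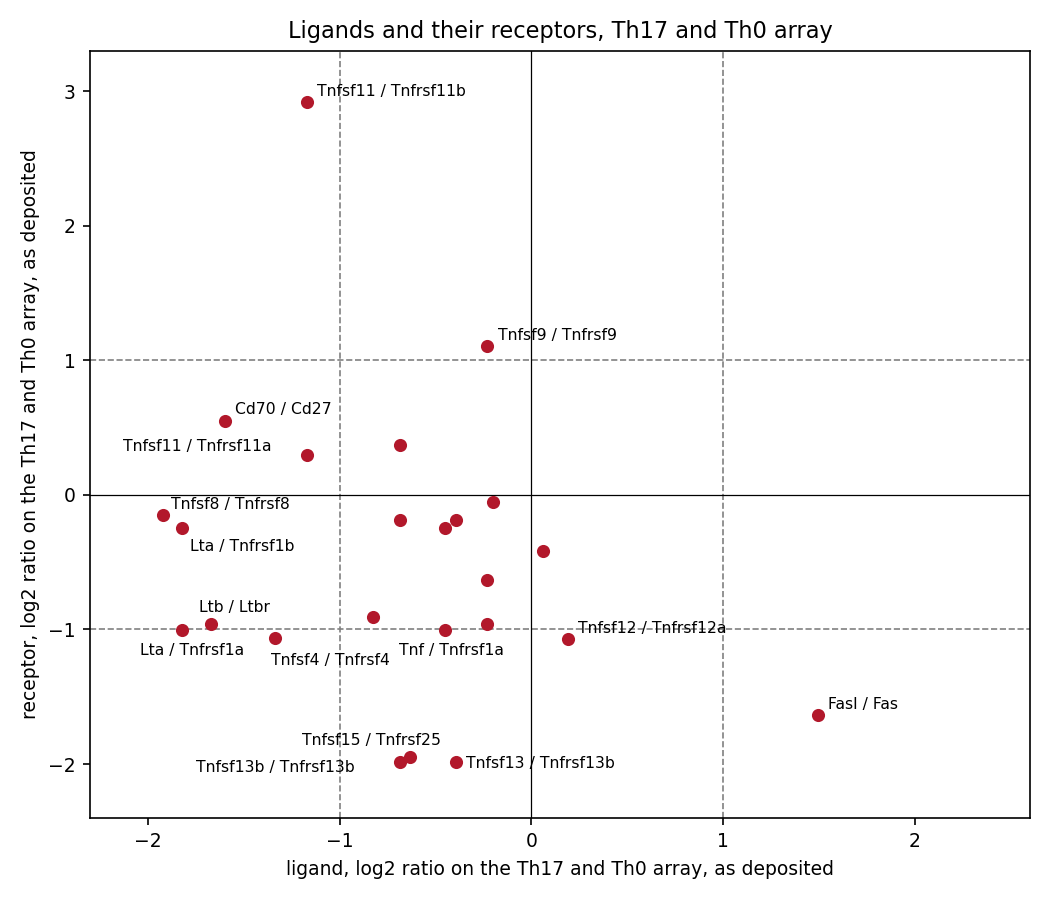
Log2 ratio on the Th17 array of 24 ligand and receptor pairs, ligand across and receptor up, with names for pairs in which at least 1 partner is past 2-fold (dashed lines). Fasl with Fas lies in the lower right corner and Tnfsf11 with Tnfrsf11b in the upper left, where partners are on opposite sides.

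Position in the genome is a feature that the choice by symbol did not use. By RefSeq gene order, 23 of the 43 members lie in 9 groups of 2 or 3 members with at most 1 other coding gene between neighbours. Values differed widely within some of these groups and less in others. No gap between neighbours over all genes was computed, so this is description only. On chromosome 1, Tnfsf4, Tnfsf18 and Fasl were at −1.33, 0.063 and 1.49 on the Th17 array, so that the ends of this group lay past 2-fold on opposite sides. On chromosome 17, Cd70 at −1.6 stood between Tnfsf9 and Tnfsf14, both at −0.23, on that array. On chromosome 6, Ltbr and Tnfrsf1a were at −0.96 and −1.01 while Cd27 was at 0.55. On chromosome 4, Tnfsf8 and Tnfsf15 were on one side of 0 but apart, at −1.92 and −0.63. Nearer together on the Th17 array were Tnfrsf26, Tnfrsf22 and Tnfrsf23 on chromosome 7, at −0.12, −0.4 and −0.074.

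**Figure D5:**
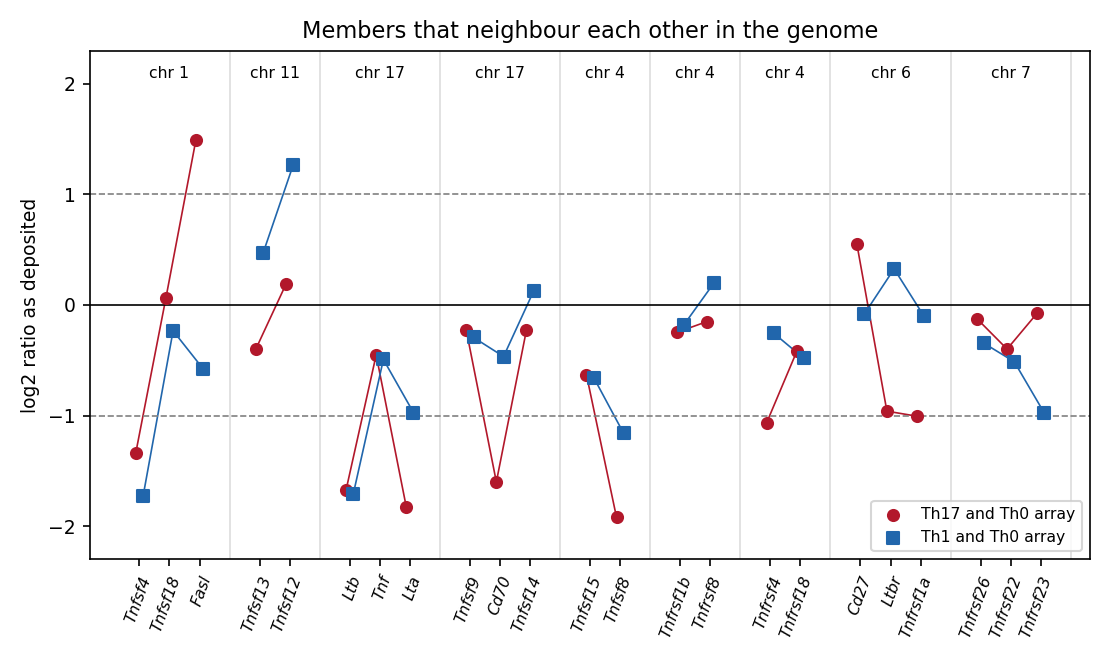
Log2 ratios of the 23 members that neighbour another member, in gene order within 9 groups (lines join neighbours), on the Th17 array (red circles) and the Th1 array (blue squares). Dashed lines mark 2-fold. The group of Tnfsf4, Tnfsf18 and Fasl spans −1.33 to 1.49 on the Th17 array.

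Promoter windows were found for 33 of the 43 members, 37 windows in all, out of 32851 windows in the RefSeq set. The NF-kappaB form stood in 6 member windows (16.2%), beside 15.7% of all windows, and its genes were Ltb, Tnf, Tnfrsf1a, Tnfrsf9, Tnfrsf13b and Tnfrsf25. AP-1 matches stood in 6 member windows (16.2%), beside 6.75% of all. STAT matches stood in 8 (21.6%), beside 7.02% of all, among them Lta, Ltb, Fas, Tnfrsf25 and Tnfrsf1a. The ROR half-site stood in 2 (5.41%), beside 14% of all, which were Tnfrsf13b and Tnfrsf25. No 2 matches of different motifs overlapped in the windows of members. A match describes the letters and is neither a bound site nor a cause of the ratios.

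Of 35 listed genes for adaptors, kinases, caspases and NF-kappaB proteins 31 were measured, with a median, as deposited, of −0.17 on the Th17 array and −0.042 on the Th1 array. On the Th17 array 1 of 31 was at least 2-fold negative and 0 were positive, beside 5.52% and 2.9% of all genes. On the Th1 array 0 were past 2-fold, beside 10.2% of all genes. The 1 gene was Nfkbia, the inhibitor that NF-kappaB itself induces, at −1.56 on the Th17 array and −0.77 on the Th1 array. Relb and Nfkb2, subunits of the pathway used by the lymphotoxin beta receptor, were at −0.9 and −0.87 on the Th17 array, short of 2-fold. The adaptor gene Traf4 was as low, at −0.9, while Map3k14, a kinase gene of the same pathway, was at −0.26. Of the 31 genes, 19 (61.3%) lay below 0 and 12 above on that array, where 53.7% of all genes lay below 0. The counts were also 19 and 12 on the Th1 array, beside 57.4% of all genes. In the difference 2 of the 31 were past 2-fold, beside 8.14% of all genes, Tank at −1.29 and the adaptor gene Traf5 at −1.15. Of 7 relatives that the symbols leave out, Btla, an inhibitory partner of Tnfrsf14, was at −1.36 and Cd160, another partner, at 1.39 on the Th17 array. The receptor genes Edar, Eda2r and Relt were near 0 there, at −0.1, −0.027 and 0.05. Among the 10 measured T cell markers, 5 were at least 2-fold negative and 1 positive on the Th17 array, beside 5.52% and 2.9% of all genes, and 4 and 0 on the Th1 array, beside 6.92% and 3.27%. Their medians, as deposited, were −0.54 on the Th17 array and −0.76 on the Th1 array, and their part in the members on that side was not tested.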

How the data were processed

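The deposited table holds 1 value for each of 36547 probes on each of 2 arrays, and no value column was left unused (0). Its values were read as log2 ratios of the channels, processed by the authors in ways no header states. This reading rests on the deposited values themselves, where the most repeated value, −0.43 on the Th17 array and −0.85 on the Th1 array, stood apart from other repeated values by log2 of small whole-number ratios. The sources used here do not give the scanner, background correction, normalisation or direction. Medians over probes were −0.045 on the Th17 array and −0.11 on the Th1 array. Per the labels' protocols, amplification and amino allyl labelling started from 500 ng of RNA.

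Probes with 1 annotated gene (26926) were kept, and 203 with several genes and 9418 unnamed here were left out. Annotation dates from the platform, and symbols were checked through gene numbers against RefSeq (26774 matched), which was used for names, gene order and promoters alone. Probes of a gene were averaged. Of the members 25 had 1 probe and 18 had 2 to 4. The pooled SD between probes of a gene was 0.5 on the Th17 array and 0.52 on the Th1 array over 5871 genes that had 2 to 19 probes. A channel of 5 or fewer units was read from ratios within 0.0001 of a whole-number ratio (log2), and matched 2 member probes. No test was possible with 1 array per group, and the number of arrays limits the precision. The members and lists were chosen with earlier results of these data known. Named genes were members at least 2-fold apart on either array or in the difference, Lta, Fas, Fasl, Tnfrsf9, Tnf, Ltb, Cd40lg, Cd27 and Cd70 at any value, members whose probes differed in sign by more than 1, partners of named members, and up to 5 genes past 2-fold per list. Members and list genes outside this rule were named after their values were seen. The NF-kappaB form searched was shortened after matches of a longer form had been seen. Averaging and the search for low channels were tested on simulated data. Python 3.11.15 with pandas 2.3.3 was used.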

Additional observations from a re-analysis of the deposited data

Results flagged for a closer look

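For 2 members the arrays lay on opposite sides of 0, each by more than the pooled SD between probes. Fasl was at 1.49 on the Th17 array and −0.58 on the Th1 array. Tnfsf11 was at −1.17 on the Th17 array and 1.07 on the Th1 array. With 1 array each and 1 probe each, these differences were not tested. When both arrays were centred on their most repeated values, Fasl lay above 0 on both, at 1.92 and 0.27.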

How the results depend on the processing

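Averaging probes by the median and leaving out probes of very low signal kept every count of ligands and receptors within 1.5 times. Centring on the median of all probes changed 2 counts, the receptors negative on the Th17 array (5 in place of 6) and positive in the difference (1 in place of 2). Under it, 5.1% of all genes were negative on the Th17 array and 3.95% positive in the difference. For the settings that follow, counts that moved by 1.5 times or more are given. Centring on control genes gave, on the Th1 array, 6 negative and 0 positive ligands (3 and 2 before) and 3 negative receptors (0 before), and in the difference 1 negative ligand (3 before), 2 negative receptors (4 before) and 3 positive receptors (2 before). It lowered the Th1 array's values by 0.28. With control genes centred, 12.5% of all genes were negative and 1.74% positive on the Th1 array. In the difference these shares were 2.2% and 8.54%. Centring on the most repeated values set values that had been at −0.43 on the Th17 array and at −0.85 on the Th1 array to 0. It left 4 negative ligands and 3 negative receptors on the Th17 array (6 and 6 before), with medians of −0.12 and 0.21. Beside these, 2.78% of all genes were negative there. On the Th1 array this centring gave 0 negative and 4 positive ligands and 6 positive receptors, and medians of 0.37 for ligands and 0.60 for receptors. It also made 29.8% of all genes positive there and 1.7% negative, so the positive counts are not a gain particular to the members. In the difference this centring gave 7 negative ligands, 8 negative receptors and 1 positive receptor, beside 9.49% of all genes negative and 2.11% positive. Another setting kept for each gene the 1 probe whose ratios, summed over both arrays, lay farthest from 0. It gave 2 negative and 2 positive receptors on the Th1 array (0 and 1 before), beside 9.74% and 4.49% of all genes. These shifts follow from how the centrings are built.

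Of the calls of single members, centring on the most repeated values ended those of Ltb, Tnfsf4 and Tnfsf8 on the Th1 array (−0.86, −0.88 and −0.31). On the Th17 array it ended those of Tnfsf4, Tnfsf11, Tnfrsf4, Tnfrsf12a and Tnfrsf1a (−0.91, −0.75, −0.64, −0.64 and −0.58). In the difference it ended that of Tnfrsf13c (0.59). Centring on the median ended those of Tnfrsf1a on the Th17 array (−0.96) and of Tnfrsf13c in the difference (0.94). Centring on control genes ended those of Tnfsf11 and Tnfsf12 on the Th1 array (0.79 and 0.99) and of Tnfrsf1a on the Th17 array (−0.98). In the difference it ended those of Ltbr, Cd70, Tnfrsf25 and Tnfsf12 (−0.98, −0.83, −0.82 and −0.77). No named value past 2-fold changed side under the 6 alternatives. No paired analysis was possible because each group held 1 array. With 1 array per group, no array could be left out.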
